A study of Mus musculus with 2 samples.

Results

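The colony-stimulating and myeloid growth factors are a small set of secreted and membrane-bound proteins that control how macrophages, granulocytes, mast cells and their precursors survive, divide and mature. They were followed here in CT26, a mouse colon carcinoma cell line. The set was given by gene name as Csf1, Csf2, Csf3, Il34, Kitl, Csf1r and Mif, 7 of the 54532 genes in the deposited table, and all 7 were found. The genes were chosen by name with the FPKM values of both libraries already known, so the levels and differences below are descriptions and no test was made.

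CT26 cells that had received lentivirus for mouse Oct4 and human SOX2 gave 1 library, called Oct4 and SOX2 below. CT26 cells that had received lentivirus with the empty expression vector gave the other library, the control, whose genotype is labelled wild type. All were grown for 4 days in medium with serum. No replicate cultures stand behind either library, so every difference compares these 2 libraries only. The gene table gave 31521115 reads for the Oct4 and SOX2 library and 32262408 for the control. Pou5f1, the gene for Oct4, was at 173 FPKM with Oct4 and SOX2 and had 0 reads in the control, and mouse Sox2 was at 23.3 FPKM with Oct4 and SOX2 and 14.1 FPKM in the control. The build named is the mouse GRCm38, so these values give no level for human SOX2. Whether human SOX2 reads were counted under mouse Sox2 was not tested. Introduced and own copies of Pou5f1 are not separated. Of 10 colon epithelium markers 3 reached 1 FPKM, and the epithelial adhesion gene Cdh1 had 0 reads in both libraries, whereas 8 of 10 mesenchymal markers reached it. Over all 54532 genes 12401 reached 1 FPKM, and 29002 had 0 reads in both libraries. The most abundant of the epithelial markers were the keratin genes Krt20, at 28.3 FPKM with Oct4 and SOX2 and 14.9 FPKM in the control, and Krt18, at 11.3 FPKM with Oct4 and SOX2 and 15.2 FPKM in the control. Of the mesenchymal markers they were the vimentin gene Vim, at 966 FPKM with Oct4 and SOX2 and 599 FPKM in the control, and the fibronectin gene Fn1, at 342 FPKM with Oct4 and SOX2 and 267 FPKM in the control. The 1 mesenchymal marker past 2-fold, Pdgfrb, was lower, at 4.93 FPKM with Oct4 and SOX2 and 14.1 FPKM in the control, and the collagen gene Col1a1 was at 40.0 FPKM with Oct4 and SOX2 and 62.1 FPKM in the control.

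Csf1, or M-CSF, and interleukin 34 are the ligands of the receptor tyrosine kinase Csf1r, through which they sustain macrophages. Csf2, or GM-CSF, and Csf3, or G-CSF, act through cytokine receptors of their own on granulocyte and macrophage precursors. Kit ligand, or stem cell factor, acts through the receptor Kit on blood stem cells, mast cells and melanocytes. Mif, a small tautomerase secreted without a signal peptide, binds the receptor Cd74, with Cd44 as its signalling partner. Tumour cells that secrete Csf1 and Csf2 are known to recruit macrophages and other myeloid cells, which carry the receptors.

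Promoter windows from RefSeq on GRCm38.p6 were matched for 4 of the 7 genes, Csf1, Csf2, Kitl and Mif. The sequence is printed for Csf1 and Mif, the abundant factors that stood lower and higher with Oct4 and SOX2. Each run is the 250 bases before the start, 5′ to 3′ on the gene's strand, at chr3:107760470-107760719 on the minus strand for Csf1 and at chr10:75860278-75860527 on the minus strand for Mif. Capitals mark matches to any of 12 short motifs, searched on both strands.
Csf1: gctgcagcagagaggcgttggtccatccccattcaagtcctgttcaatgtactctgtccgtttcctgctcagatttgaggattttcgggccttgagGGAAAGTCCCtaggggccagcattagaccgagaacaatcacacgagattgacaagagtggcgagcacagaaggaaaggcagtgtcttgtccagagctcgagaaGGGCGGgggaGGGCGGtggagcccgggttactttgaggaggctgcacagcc
Mif: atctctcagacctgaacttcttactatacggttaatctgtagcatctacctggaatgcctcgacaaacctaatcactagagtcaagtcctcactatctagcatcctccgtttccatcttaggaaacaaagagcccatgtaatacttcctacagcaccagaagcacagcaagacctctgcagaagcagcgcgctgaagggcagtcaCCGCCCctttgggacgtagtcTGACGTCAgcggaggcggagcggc

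In the Csf1 window the capitals from 154 bases before the start are the single match to the kappaB motif, which NF-kB subunits bind. A match of this kind is held by 3.9% of the 32851 promoter windows in the table. This form of the motif was adopted after a looser one had been searched, which 45.8% of windows hold and which matched 4 times in Csf1, 3 times in Kitl and not in Mif or Csf2. The Csf1 window also holds 2 matches to GGGCGG, the Sp1 box, found in 32.7% of windows. The Kitl window, chr10:100015571-100015820 on the plus strand, reaches past a start site that the deposited table places 191 bases earlier. It holds 3 Sp1 boxes, of which a pair overlaps, with 1 CGGAAG, an ETS-type motif held by 13.6% of windows, and 1 TATAAA box 25 bases before the start, held by 12.4%. The Mif window holds 1 Sp1 box and, 24 bases before the start, TGACGTCA, the cyclic AMP response element, held by 1.55% of windows. The Csf2 window holds 1 Sp1 box and, 145 bases before the RefSeq start, 1 match to TTGCNNAA, the motif of C/EBP factors. That motif is held by 9.56% of windows, and the windows of Csf1, Kitl and Mif hold none. The deposited table places the Csf2 start 232 bases downstream of the RefSeq start, so the bases nearest to it were not searched. For Mif the deposited start lies 37 bases downstream. No match was found in any of the 4 windows to TGANTCA for AP-1 (6.75% of windows), GCGNGGGCG for Egr1 (4.7%), ACGTG for hypoxia-inducible factors (16.6%), the interferon-stimulated response element (2.98%), the octamer ATGCAAAT (1.6%) or ACAATG for SOX factors (10.7%). The Egr1 motif too replaced a looser form, held by 41.6% of windows, which had matched 2 times in Csf1 and 3 times in Kitl. These matches describe letters only, and no binding was measured.

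The levels followed the same order wherever reads were found. FPKM counts fragments after division by gene length and library depth, so that genes can be set side by side. The deposited length can exceed that of a transcript. For Csf1 it is 5281 bases, against 4176 in the transcript used below, and for Mif 745 against 544. Ranks and ratios between genes rest on these lengths. Mif was the most abundant of the set in both libraries, followed by Csf1, Kitl and Il34. Csf2, Csf1r and Csf3 stayed under 1 FPKM, the level taken here as measured. So 4 of the 7 genes were measured, all of them ligands, and their ratios are given on the scale of log2(FPKM + 1), which understates differences of low genes. A gene is called higher or lower at 2-fold or more on that scale. By that rule 1 of the 4 was lower, none was higher and 3 were within 2-fold. Over all 12401 measured genes 1.85% were at least 2-fold lower and 2.42% at least 2-fold higher. The median log2 ratio of the 4 was 0.09, against -0.01 over all measured genes.

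**Figure D1:**
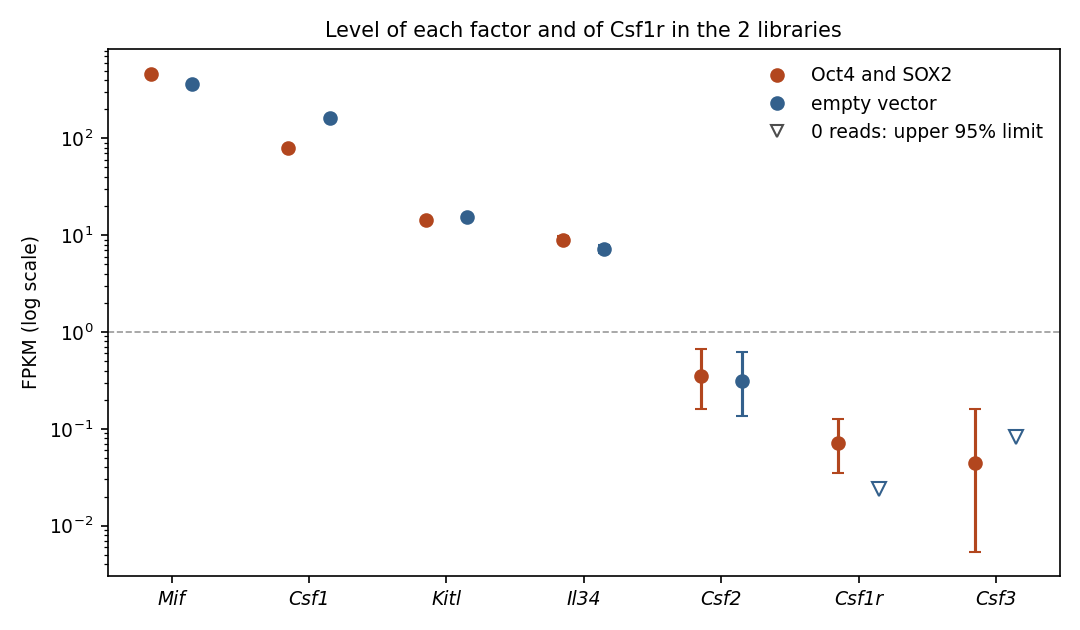
FPKM of each gene on a log axis in the Oct4 and SOX2 library (orange, left) and the empty vector control (blue, right), with exact 95% Poisson limits that cover counting error only; open triangles give the upper limit where a library had 0 reads, and the dashed line marks 1 FPKM. Mif, Csf1, Kitl and Il34 lie above the line in both libraries and the other 3 genes below it, and Csf1 is the gene whose points are furthest apart among those above it.

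Csf1 was the factor that differed most among those measured. It stood at 78.9 FPKM from 13277 reads in the Oct4 and SOX2 library and at 164 FPKM from 27563 reads in the control. The control library was the high one, and Csf1 still ranked 508th of 22046 protein-coding genes with Oct4 and SOX2, against 216th in the control. In plain FPKM Csf1 was 2.07-fold lower (exact 95% counting interval 2.03 to 2.12), with a log2 ratio of -1.04, just past the 2-fold rule. Counting intervals here come from the reads of these libraries and do not cover variation between cultures. In reads recovered, 10 of the 10276 measured protein-coding genes, Csf1 included, had at least as large a deficit as its 14286 reads. Among the 1038 protein-coding genes with 50 FPKM or more in a library, 2.02% were at least 2-fold lower, and 20 of them, with Csf1 counted, stood as low as Csf1 or lower. In bulk RNA, fewer cells that express Csf1 and less Csf1 RNA in each cell cannot be told apart.

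Csf1 (ENSMUSG00000014599) lies on chromosome 3 from 107741048 to 107760469 on the minus strand of GRCm38. GENCODE M21 gives it 7 transcripts, of which the longest principal one spans 9 exons, codes over 1656 bases and ends in a 3′ untranslated region of 2111 bases. The coding variants encode forms that are secreted or held at the membrane, and a value per gene does not separate them. No gene elsewhere in the annotation matched 100 or more bases of its coding sequence at 90% identity.

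**Figure D2:**
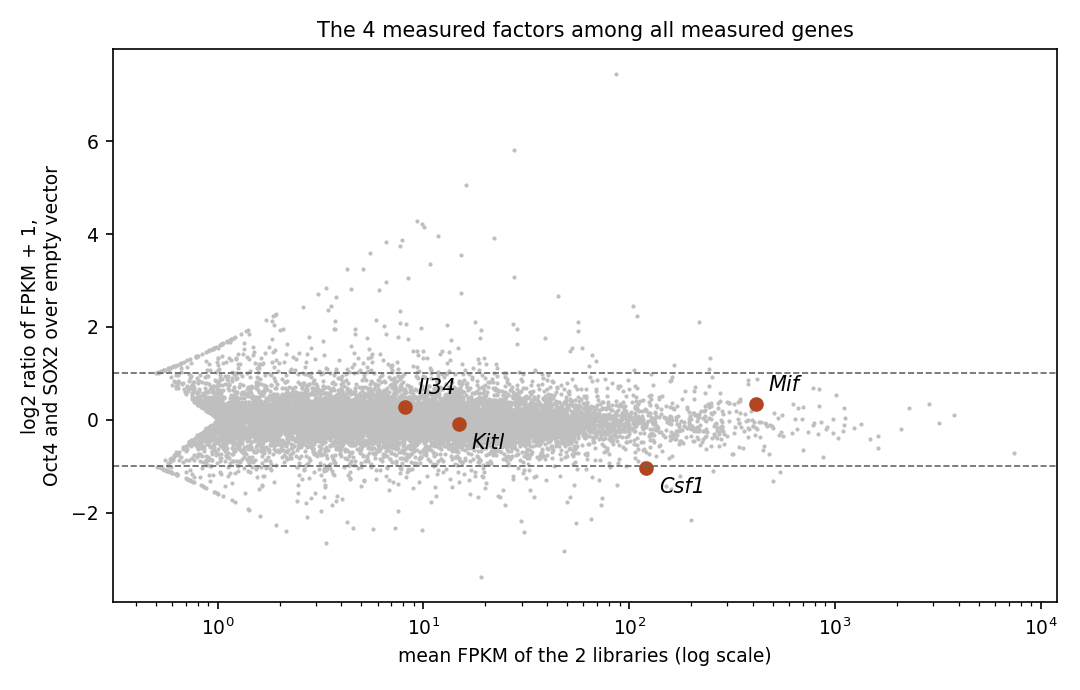
Log2 ratio of FPKM + 1, Oct4 and SOX2 over empty vector, against the mean FPKM of both libraries on a log axis for all 12401 measured genes (grey), with the 4 measured factors in orange; dashed lines mark 2-fold. Csf1, at -1.04, lies at the lower line at a high mean level, while Il34, Kitl and Mif lie between the lines.

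Il34, which shares the Csf1r receptor with Csf1, stood slightly higher with Oct4 and SOX2. It stood at 9.004 FPKM from 562 reads with Oct4 and SOX2 and at 7.24 FPKM from 453 reads in the control. The Oct4 and SOX2 library was the higher one, 1.24-fold (1.10 to 1.41), with a log2 ratio of 0.28, inside 2-fold. Of the measured protein-coding genes 16.7% had a ratio as high as that of Il34 or higher. Because the ligands differed in opposite directions, the FPKM of Csf1 was 8.76 times that of Il34 with Oct4 and SOX2, against 22.6 times in the control. Together they summed to 87.9 FPKM with Oct4 and SOX2 and 171 FPKM in the control, and Csf1 made 89.8% of the sum with Oct4 and SOX2 and 95.8% in the control. Il34 (ENSMUSG00000031750) lies on chromosome 8 from 110741829 to 110805924 on the minus strand, with 5 annotated transcripts. Its exons overlap those of Gm15894 and Gm15895 on the other strand by 22 and 75 of 1959 bases, and these genes held at most 6 reads in a library.

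Csf1r, the receptor for both, was close to absent. It had 11 reads or 0.0707 FPKM with Oct4 and SOX2 (Poisson limits 0.0353 to 0.127), and 0 reads in the control, which allows up to 0.0237 FPKM. Set against a floor of 3 reads in place of 0 in the control, this was 3.67-fold higher with Oct4 and SOX2. That value depends on the floor chosen, and the lower limit of the exact interval was 2.51. Csf1r (ENSMUSG00000024621) lies on chromosome 18 from 61105572 to 61132149 on the plus strand. Of its 5774 annotated exon bases 873 are shared with exons of Hmgxb3 on the opposite strand, which had 1803 reads with Oct4 and SOX2 and 1812 in the control. Whether reads kept their strand is not given in the sources used here, and the part of Hmgxb3 in the Csf1r reads was not tested.

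Kitl, the ligand of Kit, was nearly level. It stood at 14.4 FPKM from 2715 reads with Oct4 and SOX2 and at 15.5 FPKM from 2921 reads in the control. The control was the higher by 1.07-fold (1.02 to 1.13), a log2 ratio of -0.10, with 37.9% of measured protein-coding genes as low or lower. Kitl (ENSMUSG00000019966) lies on chromosome 10 from 100015630 to 100100416 on the plus strand, and 4 of its 6 transcripts are annotated as coding. The forms known to differ in shedding from the cell surface are not separated in these values.

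Mif was among the most abundant messages of the cells. It stood at 462 FPKM from 10958 reads with Oct4 and SOX2 and at 365 FPKM from 8668 reads in the control. The Oct4 and SOX2 library was the higher one by 1.27-fold (1.23 to 1.30), a log2 ratio of 0.34, within the 2-fold rule. Among protein-coding genes Mif ranked 44th with Oct4 and SOX2 and 67th in the control, and 12.7% of those measured had a ratio as high or higher. Mif (ENSMUSG00000033307) lies on chromosome 10 from 75859353 to 75860240 on the minus strand, and its coding transcript has 3 exons and 345 coding bases. Mif has many near copies: 8 other genes, mostly processed pseudogenes, match 100 or more of its coding bases at 90% identity or more. Together they held 27 reads with Oct4 and SOX2 and 60 in the control, so few reads were assigned to them. The sources used here do not say how a read matching several of these copies was treated.

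**Figure D3:**
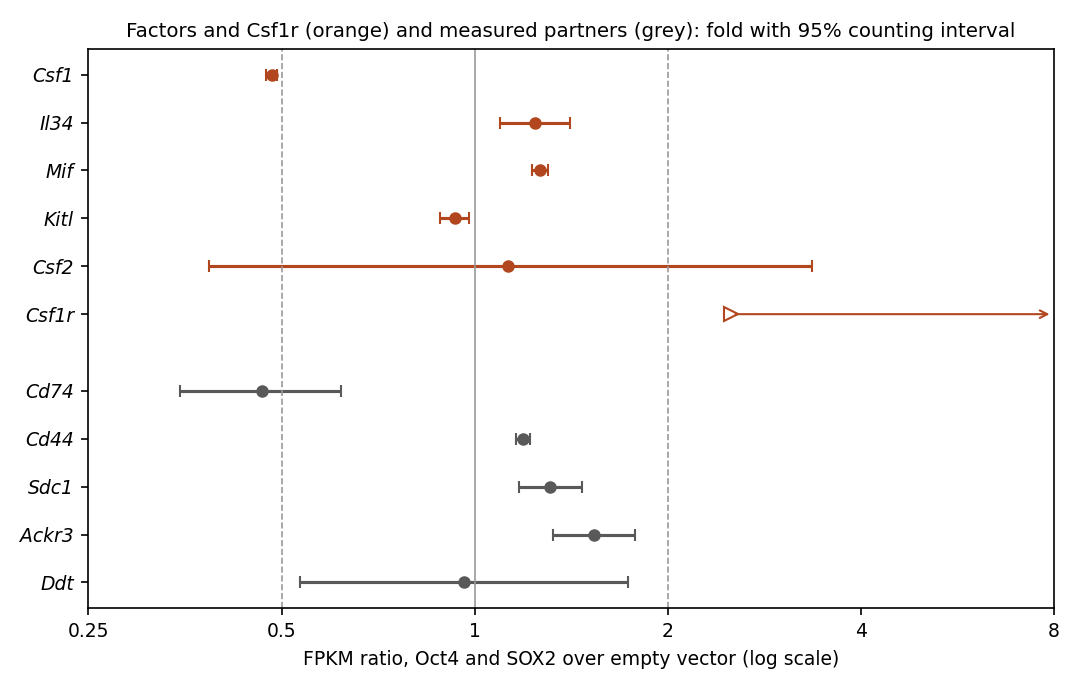
FPKM ratio, Oct4 and SOX2 over empty vector, on a log axis for 5 of the factors and Csf1r (orange) and for 5 measured receptors and partners (grey), with exact 95% counting intervals; the arrow for Csf1r starts at its lower limit of 2.51, as the control had 0 reads, and Csf3 is left out. The interval of Csf1 lies below 0.5, those of Il34 and Mif lie above 1 and below 2, and that of Csf2 spans 0.386 to 3.36.

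Csf2 and Csf3, the granulocyte and macrophage growth factors, stayed at the edge of detection. Csf2 had 9 reads or 0.353 FPKM with Oct4 and SOX2 and 8 reads or 0.313 FPKM in the control, a ratio of 1.13 with an interval from 0.386 to 3.36. Csf3 had 2 reads with Oct4 and SOX2 and 0 in the control, where the upper limit is 0.0818 FPKM, and no fold is given at these counts. A difference of either gene below these limits was not detectable at this depth. Csf2 (ENSMUSG00000018916) lies on chromosome 11 from 54247271 to 54249667 on the minus strand and Csf3 (ENSMUSG00000038067) on chromosome 11 from 98701263 to 98703629 on the plus strand.

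Csf2 and Csf3 differ from the other genes of the set in their 3′ untranslated regions. The pentamer AUUUA, written ATTTA in the DNA letters used here, is the core of AU-rich elements, to which proteins that shorten the life of cytokine mRNA bind. Csf2 has 9 pentamers in 317 bases, or 28.4 per kilobase, a density reached by 0.0595% of 20152 protein-coding genes, whose median is 1.23. Csf3 has 6 in 669 bases, or 8.97 per kilobase, reached by 1.71% of genes. The measured ligands are less dense in it: Kitl has 14 in 4435 bases (3.16 per kilobase), Il34 has 1 in 439 (2.28) and Csf1 has 4 in 2111 (1.89). Mif has none in its 124 bases, and Csf1r, though under 1 FPKM, has 3 in 1669 bases (1.80 per kilobase). All but Mif lie above the median: 20.5% of genes reach the density of Kitl, 31.6% that of Il34, 37.8% that of Csf1 and 39.4% that of Csf1r. The densest 30 bases are shown for Csf2, Csf3 and Csf1, the most and least rich of the colony-stimulating factors, with pentamers in capitals. They lie at chr11:54247329-54247358 on the minus strand, chr11:98702984-98703013 on the plus strand and chr3:107741109-107741138 on the minus strand of GRCm38, read from GENCODE M21 transcripts.
Csf2: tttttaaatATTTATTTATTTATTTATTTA
Csf3: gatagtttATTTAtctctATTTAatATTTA
Csf1: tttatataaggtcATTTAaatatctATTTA

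The listed genes for regulators of AU-rich or unstable cytokine mRNA were all measured as RNA and all within 2-fold. Of 11 RNA-binding regulators of AU-rich or unstable cytokine mRNA 11 were measured, 8 with a ratio above 0, and their median was 0.04. Some of these have counting intervals that span 1, Zfp36l2 among them. Over all 12401 measured genes 5993 had a ratio above 0. Zfp36l1, a decay-promoting zinc finger protein gene, was at 9.43 FPKM with Oct4 and SOX2 and 5.21 FPKM in the control. Zfp36, encoding tristetraprolin, was at 6.43 FPKM with Oct4 and SOX2 and 4.32 FPKM in the control. The most abundant were Zfp36l2, at 86.9 FPKM with Oct4 and SOX2 and 84.8 FPKM in the control, and Khsrp, at 61.0 FPKM with Oct4 and SOX2 and 52.0 FPKM in the control. The proteins of these genes, and what they did to any of the 7 messages, were not measured.

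Most receptor and partner genes of these factors were under 1 FPKM. Of 13 such genes 4 were measured, none was at least 2-fold higher or lower, and 6 had 0 reads in both libraries. Over all 54532 genes 12401 were measured and 29002 had 0 reads in both libraries, so these counts alone do not set the receptors apart. Those with no read in either library were Csf2ra, the alpha chain of the GM-CSF receptor, Csf2rb2, Csf3r, Kit, Cxcr2 and Cxcr4. Cd74, the Mif receptor that is also the invariant chain of MHC class II, was at 1.62 FPKM from 73 reads with Oct4 and SOX2 and at 3.49 FPKM from 157 reads in the control. This is a plain FPKM difference of 2.15-fold toward lower (1.62 to 2.87), and its log2 ratio of -0.77 fell short of the rule. Its partner Cd44 was at 60.2 FPKM with Oct4 and SOX2 and 50.5 FPKM in the control. Ackr3, a chemokine receptor that also binds Mif, was 1.54-fold higher (1.33 to 1.78), at 4.37 FPKM with Oct4 and SOX2 and 2.84 FPKM in the control. Sdc1, a syndecan known to bind interleukin 34, was at 5.97 FPKM with Oct4 and SOX2 and 4.55 FPKM in the control.

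Relatives and partners of Mif did not share a direction. All 5 were measured, 1 had a ratio above 0 and their median was -0.04. The counting interval of Ddt spans 1, and over all 12401 measured genes 5993 had a ratio above 0. Ddt, whose product is the closest relative of Mif, was at 1.02 FPKM with Oct4 and SOX2 and 1.05 FPKM in the control, far below Mif per length. Rps19, a ribosomal protein gene whose product binds Mif, was at 130.4 FPKM with Oct4 and SOX2 and 134 FPKM in the control, and the peroxiredoxin gene Prdx1 at 92.0 FPKM with Oct4 and SOX2 and 73.9 FPKM in the control.

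Membrane-bound Csf1 and Kit ligand are released by proteases of the cell surface, and these genes were within 2-fold. Of 7 shedding genes 5 were measured, 4 with a ratio above 0, and their median was 0.10. Adam17 is counted among these, though its counting interval spans 1. Over all 12401 measured genes 5993 had a ratio above 0. Adam17, the sheddase of Csf1, was level at 8.52 FPKM with Oct4 and SOX2 and 8.48 FPKM in the control. Adam10, a related sheddase, was 1.59-fold higher (1.51 to 1.68), at 24.1 FPKM with Oct4 and SOX2 and 15.1 FPKM in the control, and the membrane metalloproteinase gene Mmp14 was at 26.8 FPKM with Oct4 and SOX2 and 25.0 FPKM in the control. Mmp9, known to release Kit ligand in bone marrow, had 4 reads with Oct4 and SOX2 and 14 in the control.

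Transcription factors known at promoters of these genes included Fos and Egr1, which had the highest ratios of any gene in the lists here. Of 15 such genes 12 were measured, 3 were at least 2-fold higher, 1 was lower and 8 were within 2-fold, with a median of 0.17. Over all measured genes 2.42% were at least 2-fold higher and 1.85% at least 2-fold lower. The list was chosen with earlier results of these data known, so its counts describe the chosen genes only. Fos, an AP-1 subunit gene, was at 23.05 FPKM with Oct4 and SOX2 and 0.533 FPKM in the control. Egr1, an early growth response factor gene, was at 176 FPKM with Oct4 and SOX2 and 31.6 FPKM in the control, and Jun, the other AP-1 subunit gene of the list, at 47.9 FPKM with Oct4 and SOX2 and 22.3 FPKM in the control. Ets2, an ETS factor gene known to act at the Csf1r promoter, was 2.28-fold lower (2.16 to 2.40), at 10.9 FPKM with Oct4 and SOX2 and 24.8 FPKM in the control. Cebpb, a C/EBP factor gene of myeloid cytokine control, was 1.66-fold lower (1.57 to 1.76), at 41.1 FPKM with Oct4 and SOX2 and 68.3 FPKM in the control. The NF-kB subunit genes, whose motif is capitalised in the Csf1 window, were within 2-fold: Rela was at 35.1 FPKM with Oct4 and SOX2 and 38.2 FPKM in the control, Nfkb1 at 15.3 FPKM with Oct4 and SOX2 and 13.3 FPKM in the control and Rel at 7.33 FPKM with Oct4 and SOX2 and 5.87 FPKM in the control. Spi1, the macrophage factor PU.1 that drives Csf1r, had 3 reads with Oct4 and SOX2 and 14 in the control.

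Downstream of the receptors, 18 of 21 signalling genes were measured and 17 were within 2-fold, with a median of -0.05. Socs3, a feedback inhibitor of cytokine and G-CSF receptor signalling, was the 1 at least 2-fold higher, at 13.1 FPKM with Oct4 and SOX2 and 5.87 FPKM in the control, 2.24-fold (2.02 to 2.48). Stat3, the transcription factor that induces Socs3, was 1.62-fold higher (1.54 to 1.70), at 12.9 FPKM with Oct4 and SOX2 and 7.96 FPKM in the control. The most abundant were the phosphatase gene Ptpn11, at 48.7 FPKM with Oct4 and SOX2 and 57.6 FPKM in the control, and the adaptor gene Shc1, at 26.0 FPKM with Oct4 and SOX2 and 32.2 FPKM in the control.

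**Figure D4:**
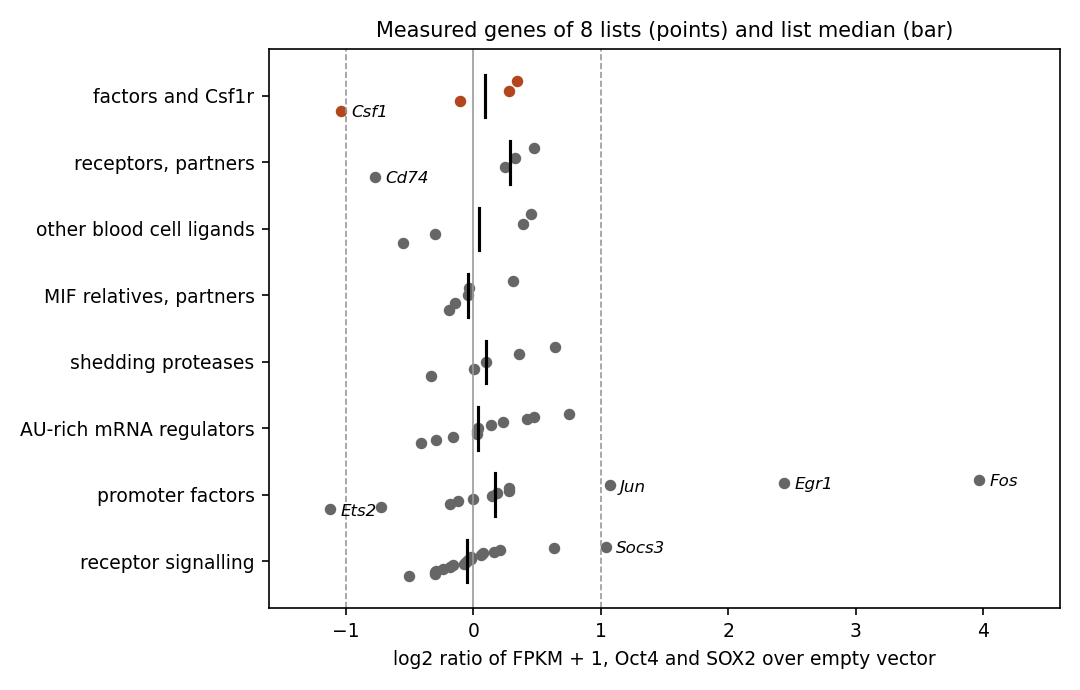
Log2 ratio of FPKM + 1, Oct4 and SOX2 over empty vector, for the measured genes of 8 lists (points) with the list median (bar); dashed lines mark 2-fold, and the myeloid, epithelial and mesenchymal marker lists are not plotted. Csf1 lies left of the lower line, Ets2 does so among promoter factors, and Fos, Egr1, Jun and Socs3 lie right of the upper line.

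Most listed markers of the blood cells that these factors act on were under 1 FPKM. Over all 54532 genes 12401 were measured and 29002 had 0 reads in both libraries, so having 0 reads does not by itself set this list apart. Of 23 myeloid markers 2 were measured, and 10 had 0 reads in both libraries, among them Adgre1, the macrophage marker F4/80, the complement genes C1qa, C1qb and C1qc, the neutrophil marker Ly6g and the mast cell gene Cpa3. The summed level of the list was 21.4 FPKM with Oct4 and SOX2 and 27.6 FPKM in the control, mostly from Cd14, at 16.2 FPKM with Oct4 and SOX2 and 20.7 FPKM in the control, and Cd68, at 4.27 FPKM with Oct4 and SOX2 and 5.53 FPKM in the control. Ptprc, the pan-leukocyte marker CD45, had 2 reads in each library.

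With 1 ratio per gene, likeness to Csf1 can be measured only by how close another ratio is. Of 7626 protein-coding genes with at least 5 FPKM in a library, 22 were within 0.05 of the log2 ratio of Csf1. The closest 5 were Gsta4, a glutathione transferase gene at 4.69 FPKM with Oct4 and SOX2 and 10.7 FPKM in the control, Pla2g2e, a secreted phospholipase gene at 12.4 FPKM with Oct4 and SOX2 and 26.6 FPKM in the control, Igf2r, the gene for the insulin-like growth factor 2 receptor, Klhl30 and Bend6. The ratio of Mif had 418 genes within 0.05, with Golph3l, Spag7, Fance, Elof1 and Ring1 closest. That of Il34 had 525, with Dohh, Dbf4, Pimreg, 2310039H08Rik and Rfxap closest, and that of Kitl had 1015, with Rxrb, Fbxo30, Glyr1, Midn and Naa40 closest.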

How the data were processed

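Members, lists and motifs were chosen with earlier results of these data known, and the motifs after the promoter windows had been read. The kappaB and Egr1 motifs were first searched in looser forms and narrowed once their matches had been seen; the report gives both. The authors deposited FPKM values for 54532 genes. Per the submitters' processing notes, the tools were HISAT2, CASAVA and featureCounts 1.5.0-p3, with build GRCm38. How FPKM was computed, which annotation was used, whether strand was kept and how reads with several matches were treated is not given in the sources used here. NEBNext Ultra libraries came from total RNA, per the labels' protocols.

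Whole reads were recovered from FPKM times gene length, since 100% of values were multiples of a per-library unit (tolerance 0.001 of a read). A fold is the plain FPKM ratio, Oct4 and SOX2 over control, with an exact 95% Clopper-Pearson interval from the reads. A floor of 3 reads stands for 0, or 0.0942 FPKM with Oct4 and SOX2 and 0.0940 FPKM in the control at 1 kilobase. Both reflect counting error alone and take each read as a separate molecule. Reads copied by PCR are not separate molecules, and where they occur the intervals are too narrow. Genes with at least 1 FPKM in a library were measured, and at least 2-fold on the log2(FPKM + 1) scale was called. With 1 library per group no test was possible. Named genes were, per list, those called, up to 3 a direction, and the 2 most abundant, with member partners, chromosomal neighbours and the 5 closest ratios; Cd74, Cebpb, Il7, Flt3l, Epo, Cdh1, Col1a1, Zfp36l1, Zfp36, Adam10, Stat3, Spi1, Mmp9, the NF-kB subunit genes and the myeloid markers other than Cd14 and Cd68 were added for their roles or values after these were seen.

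Promoters are RefSeq's (GRCm38.p6) and transcripts GENCODE M21's, counting pentamers in genes with at least 50 bases of 3′ untranslated region. Copies were found with blastn 2.17.0. Steps were tested on simulated Poisson reads without variation between cultures or PCR copies, so that check covers the calculation only. Software was pandas 2.3.3, numpy 2.4.6, matplotlib 3.10.9 and scipy 1.17.1 in Python 3.11.15.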

Additional observations from a re-analysis of the deposited data

How the results depend on the processing

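Csf1 was at least 2-fold lower under all 9 alternatives, and none of the 7 genes was called at least 2-fold higher under any of them. Csf2, Csf3 and Csf1r, under 1 FPKM, could be called only with no filter, where the log2 ratio of Csf1r stayed at 0.10. The plain counting interval of Csf1r starts at 2.51, beyond 2-fold, but the filter kept it out of the calls made by interval. The changes of filter and the limit to protein-coding genes leave the ratio of Csf1 as it was, so they could not alter its call. Its log2 ratio lay between -1.05 and -1.01 over the 5 that change the ratio (pseudocounts of 0.1 and 5 FPKM, centring on the median, and rescaling to total reads with or without the 50 highest genes). Over the same 5, Mif lay between 0.34 and 0.37, Il34 between 0.19 and 0.31 and Kitl between -0.10 and -0.07. Csf1r and Csf3, with 11 and 2 reads against 0, left their 95% binomial limits, whose upper edge is the value itself where the control has 0 reads: their log2 ratios of 0.10 and 0.06 were 0.77 and 0.53 with a pseudocount of 0.1, 0.11 and 0.08 after centring, and 0.10 and 0.06 after either rescaling, and that of Csf1r was 0.02 with a pseudocount of 5. Over all genes 300 were higher and 230 lower. These counts were 520 and 459 with a pseudocount of 0.1 FPKM, 75 and 56 with one of 5 FPKM, 145 and 121 with a filter of 5 FPKM, and 143 and 110 over protein-coding genes only. With a pseudocount of 5 the calls of Ets2, Jun, Socs3 and Pdgfrb were lost, and with 0.1 Cd74 was called lower. Where calls rested on the counting interval, the ratios were unchanged, so list medians could not move, and none moved over protein-coding genes only. List medians were compared with a yardstick for single genes, the median half-width of their 95% intervals, not the error of a median. With the unmoved ones included, 92 of 98 list medians under an alternative moved by no more than this yardstick. The others were, with no filter, receptors (0.00, against 0.29), shedding proteases (0.01, against 0.10), promoter factors (0.00, against 0.17) and myeloid markers (0.00, against -0.32), and with a filter of 5 FPKM, Mif relatives and partners (-0.09, against -0.04) and epithelial markers (0.24, against -0.01). The largest shift from another scaling was -0.03 on the log2 scale. No paired analysis was possible because each group has 1 library. Depth limits Csf2, Csf3 and Csf1r.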

Other observations

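Other blood cell growth factors were low. Of 9 such ligand genes 4 were measured, none of them at least 2-fold higher or lower, with a median log2 ratio of 0.04. Over all 54532 genes 12401 were measured. Il11, a ligand for megakaryocyte and stromal cells, was 1.40-fold higher (1.17 to 1.66), at 4.98 FPKM with Oct4 and SOX2 and 3.57 FPKM in the control. The lymphocyte factor Il7 stood at 2.58 FPKM with Oct4 and SOX2 and 1.63 FPKM in the control, a ratio of 1.58 (1.37 to 1.84). Il15, a growth factor gene for natural killer and memory T cells, was 1.79-fold lower (1.40 to 2.29), at 1.46 FPKM with Oct4 and SOX2 and 2.61 FPKM in the control. Flt3l, a dendritic cell growth factor gene, was at 1.28 FPKM with Oct4 and SOX2 and 1.81 FPKM in the control, and Epo and Il3 had 0 reads in both libraries.

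Neighbours of the genes on their chromosomes gave the following values. Pdgfrb, a platelet-derived growth factor receptor gene 20.5 kb before Csf1r on the same strand, was 2.85-fold lower (2.64 to 3.09), with 860 reads with Oct4 and SOX2 and 2458 in the control, while Csf1r had 11 reads with Oct4 and SOX2 and 0 in the control. Ahcyl1, 44.5 kb from Csf1, was 1.41-fold lower (1.38 to 1.44), at 55.4 FPKM with Oct4 and SOX2 and 78.0 FPKM in the control. P4ha2, a collagen prolyl hydroxylase gene 116 kb from Csf2, was 1.55-fold higher (1.47 to 1.64), at 16.4 FPKM with Oct4 and SOX2 and 10.6 FPKM in the control. Sf3b3, next to Il34, was at 35.45 FPKM with Oct4 and SOX2 and 35.7 FPKM in the control, and Mtss1l, on its other side, was 1.41-fold lower (1.18 to 1.69), at 1.23 FPKM with Oct4 and SOX2 and 1.73 FPKM in the control. On either side of Csf3, Med24 was at 7.99 FPKM with Oct4 and SOX2 and 7.78 FPKM in the control and Psmd3 at 38.1 FPKM with Oct4 and SOX2 and 31.7 FPKM in the control. The other protein-coding neighbours, Eps8l3, Csl, Gm4301, Gstt2 and Derl3, were under 1 FPKM.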
